A study of Mus musculus with 2 samples.

Results

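The genes described here are 41 immediate early and heat shock genes, chosen by name, among the 31055 features counted in blood endothelial cells (BECs) sorted from PyMT and KPC tumors. All 41 were found in the files. They are 7 AP-1 genes, 6 genes of the EGR and NR4A families, 6 other early genes, 7 phosphatases and RNA regulators, 7 genes of growth arrest, survival and feedback, and 8 heat shock genes. The question was which of them differ between vessel classes beyond a response that all cells of a library share. The study addressed how venules in tumors form and recruit T cells, and it ran scRNAseq (single-cell RNA sequencing in droplets) on endothelial cells of 2 tumor models. Both groups were wild-type (WT) female C57BL6 mice aged 6 weeks that carried an orthotopic tumor grown from 100000 implanted cells for 10 days, with no other treatment. The PyMT tumors came from a mammary cancer line and the KPC tumors from a pancreatic cancer line. Digestion lasted 30 min at a temperature of 37 °C, with collagenase D at 400 U/mL for PyMT and 500 U/mL for KPC. Each model had 1 library, the number of mice behind it is not given in the sources used here, and so there was no replicate check and no test was run.

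Immediate early genes are switched on within minutes of a stimulus by transcription factors that are already present in the cell, without new protein synthesis. Heat shock genes encode chaperones that fold and refold proteins, and heat shock factor 1 drives the inducible ones when misfolded proteins build up. Both groups are known for responding to the enzymes, warmth and handling of tissue dissociation, and in endothelium several early genes also respond to blood flow and to inflammatory cytokines.

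The PyMT library held 55547926 unique molecular identifiers (UMIs, each a captured transcript counted once) in 12464 barcodes, and the KPC library held 44441942 in 10236. After leaving out barcodes of fewer than 500 genes or of 10% or more mitochondrial UMIs, 11744 in PyMT and 9591 in KPC remained, and 170 barcode sequences occurred in both libraries. Classes were set by summed UMIs of marker pairs taken in a fixed order (Krt8 and Krt18 for tumor, Col1a1 and Col1a2 for fibroblast, Mmrn1 and Prox1 for lymphatic, Notch3 and Higd1b for pericyte, Ackr1 and Selp for venule, Gja5 and Sema3g for artery, Apln and Angpt2 for tip, Car4 and Cd300lg for capillary). The first 4 classes were kept apart from the blood endothelial barcodes and are called outside the blood vessels for short, although pericytes belong to the vessel wall. They were present although the sort was stated to deplete EpCAM and podoplanin positive cells. The last 4 and the barcodes of no class are the blood vessel barcodes, 10677 in PyMT and 7433 in KPC. Markers that the rule did not use were highest in the class they belong to for artery, venule and tip. The capillary markers not used summed to 5193 counts per 1000000 UMIs of the class (CPM) in the PyMT capillary class, against 5182 in the PyMT venule class and 11403 in the PyMT pericyte class, so the PyMT capillary class is separated by its rule alone. In KPC they were highest in the capillary class, at 13790 CPM, against 8722 CPM in the barcodes of no class. The PyMT pericyte class (27 barcodes) also held Cdh5, an endothelial gene, at 857 CPM, and the PyMT fibroblast class had 28 barcodes. Epcam stood at 19.7 CPM in the PyMT tumor class against 170 in KPC. The 5 tumor markers not used by the rule, Epcam among them, summed to 40.7 CPM there against 4558 CPM in KPC. The PyMT class by that name thus rests on weak epithelial markers.

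Promoter sequence of RefSeq (mm10, GRCm38.p6) was matched for 33 of the 41 genes, as the 250 bases before the gene start. The 5 shown were picked as pairs of a gene and a motif, so each holds the motif it is shown with. Hspa1a is the member that differed most between vessel classes. Hspb1 is the heat shock gene second to it in the difference between the libraries. The other 3, Zfp36, Btg2 and Dusp1, are early genes that followed the shared response. Capitals mark GAANNTTC or TTCNNGAA (a pair of heat shock element units) in Hspa1a and Hspb1, the CArG box bound by serum response factor in Zfp36, and TGACGTCA (the cyclic AMP response element, CRE, bound by CREB and ATF factors) in Btg2 and Dusp1. They lie at chr17:34972157-34972406 (minus strand), chr5:135887669-135887918 (plus strand), chr7:28379229-28379478 (minus strand), chr1:134079156-134079405 (minus strand) and chr17:26508473-26508722 (minus strand), in that order.
Hspa1a: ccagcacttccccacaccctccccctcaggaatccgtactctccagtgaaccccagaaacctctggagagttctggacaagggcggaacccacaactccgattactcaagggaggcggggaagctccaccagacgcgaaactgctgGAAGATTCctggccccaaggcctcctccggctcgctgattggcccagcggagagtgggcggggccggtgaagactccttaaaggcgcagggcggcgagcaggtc
Hspb1: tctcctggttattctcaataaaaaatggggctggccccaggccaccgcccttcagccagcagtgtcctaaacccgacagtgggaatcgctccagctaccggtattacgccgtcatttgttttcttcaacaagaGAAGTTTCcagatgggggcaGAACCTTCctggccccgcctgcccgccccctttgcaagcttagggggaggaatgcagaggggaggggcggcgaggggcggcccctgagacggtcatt
Zfp36: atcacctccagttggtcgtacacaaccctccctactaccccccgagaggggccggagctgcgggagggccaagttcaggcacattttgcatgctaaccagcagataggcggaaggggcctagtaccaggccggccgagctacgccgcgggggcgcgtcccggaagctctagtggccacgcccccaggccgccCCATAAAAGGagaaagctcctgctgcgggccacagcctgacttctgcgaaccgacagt
Btg2: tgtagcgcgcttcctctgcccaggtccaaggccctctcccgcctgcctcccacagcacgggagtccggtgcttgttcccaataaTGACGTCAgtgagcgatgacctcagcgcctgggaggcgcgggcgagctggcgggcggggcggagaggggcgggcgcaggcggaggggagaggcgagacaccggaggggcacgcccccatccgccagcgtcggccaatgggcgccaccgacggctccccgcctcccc
Dusp1: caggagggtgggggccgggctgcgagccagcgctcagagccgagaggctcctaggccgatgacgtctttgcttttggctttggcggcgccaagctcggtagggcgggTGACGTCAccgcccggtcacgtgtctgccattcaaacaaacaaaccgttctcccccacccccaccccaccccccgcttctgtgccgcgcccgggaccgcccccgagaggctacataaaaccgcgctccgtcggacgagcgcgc
Both strands were searched. A member gene was counted when any of its promoters matched, with 43 promoters over the 33 genes. Shares of all promoters are over single promoters, so the member shares lean higher by the way of counting. The heat shock motif was in 8 of the 33 genes (24.2%) against 12.8% of all promoters of this length, with 2 matches in Hspb1 that begin 117 and 97 bases before the start. The CRE was in 3 (Btg2, Dusp1 and Maff, 9.09% against 1.55%) and the CArG box in 3 (Dusp5, Egr2 and Zfp36, against 1.47% of all promoters). Fos and Fosb, which also followed the shared response, held neither in these exact letters within the 250 bases. Bases further upstream and variants of the letters were not searched, so this does not show that either gene lacks such a site. An NF-κB motif was in 9 (27.3% against 7.25%), among them Nfkbia and Ier3. TGANTCA, the AP-1 motif, was in 0 of the 33 against 6.75% of all promoters. These are matches of letters and say nothing of binding.

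Levels in CPM set the summed UMIs of a gene against the total of its class, and every interval is an exact 95% interval for counting error only. In all blood vessel barcodes the member with the highest level was Hspa8, the constitutive cytosolic chaperone Hsc70, at 3028 CPM in PyMT and 3567 CPM in KPC. Fos and Jun, which pair to form the transcription factor AP-1, came next in both libraries, at 643 and 578 CPM in PyMT and at 1947 and 1346 CPM in KPC. At least 10 CPM over blood vessel barcodes in each library was reached by 7286 genes, which were compared, and by 34 of the 41 members. The other 7 members (Fosl1, Egr2, Egr3, Nr4a2, Nr4a3, Gadd45b and Hspa1b) were too low and are given by level only.

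The summed level of 10 early genes (Fos, Fosb, Jun, Junb, Egr1, Ier2, Dusp1, Zfp36, Btg2 and Atf3) was taken as the shared immediate early core. It was 2687 CPM in PyMT blood vessel barcodes and 7446 CPM in KPC. In both libraries it was higher in the artery class (5209 and 10610 CPM) than in the venule class (3620 and 6634 CPM) and lowest in the tip class (2079 and 3958 CPM). The capillary class was not placed alike, at 2763 CPM in PyMT and at 11538 CPM, the highest of the 4, in KPC. Outside the blood vessels the core ran from 3475 CPM (tumor) to 7059 CPM (pericyte) in PyMT and from 4565 CPM (tumor) to 10374 CPM (pericyte) in KPC. A heat shock core of 7 genes (Hspa1a, Hspa1b, Hsp90aa1, Hspa8, Hsph1, Dnajb1 and Dnaja1) varied less over vessel classes, from 3574 CPM (artery) to 4435 CPM (tip) in PyMT and from 5160 CPM (artery) to 5802 CPM (tip) in KPC. Hspa8 gave 148053 of its 200853 UMIs in PyMT blood vessel barcodes and 94816 of 144812 in KPC, so the sum mainly shows that gene. The heat shock member Hspb1 was not part of this core. In both libraries the artery class thus had more of the early core than venule and tip. It had the least of the heat shock core among the 4 in PyMT (3408 to 3746 CPM). In KPC its interval (4915 to 5413 CPM) held the capillary level of 5284 CPM, so these classes were not told apart. The heat shock core also rose from the barcodes with fewest to those with most UMIs, from 3595 to 4225 CPM in PyMT and from 4851 to 5670 CPM in KPC. In the quartile of each class with most UMIs, KPC artery stood at 5429 CPM against 5315 CPM in capillary.

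**Figure D1:**
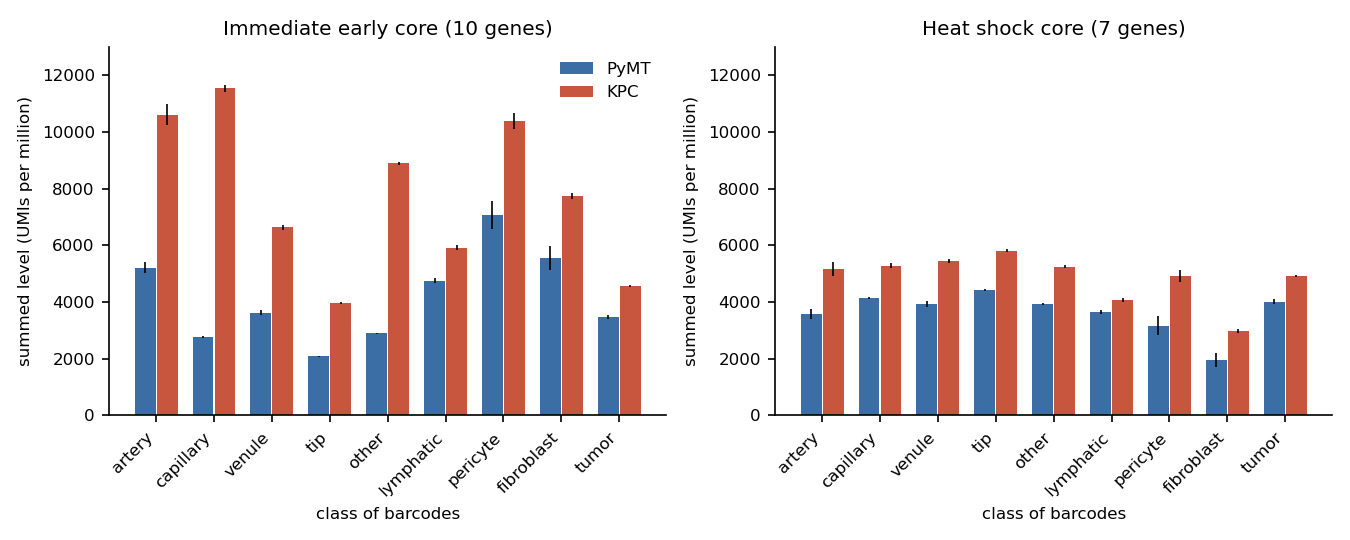
Summed level, in CPM, of the 10 immediate early core genes and of the 7 heat shock core genes in each class of barcodes in the PyMT and KPC libraries, with exact 95% Poisson intervals. The tip class has the lowest early core of the vessel classes in both libraries (2079 and 3958 CPM), while the heat shock core of the vessel classes lies between 3574 and 5802 CPM.

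The depth of a barcode moved with the core. Barcodes under 1000 UMIs held 5865 CPM of it in PyMT and 16515 CPM in KPC, against 2294 and 3792 CPM in barcodes over 8000 UMIs. The tip class was the deepest, with medians of 5845 UMIs in PyMT and 5449.5 in KPC, and the KPC capillary class the shallowest of the 4, at 1879. Within 10 strata of UMIs per barcode, the log2 ratio of the core to the other blood vessel barcodes was −0.36 and −0.56 in the tip class (−0.48 and −1.20 without strata), 0.90 and 0.33 in the artery class (0.97 and 0.52), 0.39 and 0.05 in the venule class (0.45 and −0.19) and 0.09 and 0.43 in the capillary class (0.05 and 0.76). The tip class thus stayed below the other barcodes and the artery class above them in both libraries. The place of the KPC capillary class varied with depth: in the deepest quartile of each class it held 7591 CPM (median 5163.5 UMIs), below the 8901 CPM of the artery class (5076 UMIs).

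Within each library, members were followed over quartiles of blood vessel barcodes ordered by the core, computed without the member itself. Early genes varied together across single barcodes while the chaperone genes Hspa8, Hsp90aa1 and Dnaja1 stayed within 2-fold. Of the 34 members compared, 21 differed 2-fold or more upward from the lowest to the highest quartile in both libraries (all genes 1.35%) and 0 differed downward (all genes 0.851%). Egr1, a zinc finger factor of the serum response, went from 15.4 to 254 CPM in PyMT (log2 ratio 4.04) and from 40.6 to 1434 CPM in KPC (5.14). Fosb, an AP-1 subunit, had log2 ratios of 4.02 and 4.40, and Fos of 3.82 and 3.74. Zfp36, which speeds the decay of short-lived mRNAs, had 3.78 and 3.89. These 4 belong to the core, whose members vary together by the way they were picked. All 10 core genes are among the 21, so that part of the count follows from the choice of core. Outside the core, Nr4a1, an orphan nuclear receptor, had 2.73 and 3.91, and Nfkbiz, an atypical IκB protein, had 2.65 and 3.84.

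Heat shock members did not vary alike. Hspa1a, the inducible Hsp70, went with the core (log2 ratios of 1.60 in PyMT and 2.83 in KPC), as did the small heat shock protein gene Hspb1 (1.15 and 1.37). Ratios below 0 in both libraries were those of Hsp90aa1, the inducible cytosolic Hsp90 (−0.53 and −0.54), Hsph1, a co-chaperone of Hsp70 (−0.30 and −0.61), and Hspa8 (−0.10 and −0.17). Dnaja1, an Hsp40, had −0.19 and 0.22, and Dnajb1, another, had 0.66 and 1.81. The median of all genes compared was −0.00 and 0.02. Myc, Dusp2 and Gadd45a, early or stress genes by name, were also nearly flat in at least 1 library (0.03 and 0.20, 0.58 and −0.05, 1.05 and 0.13). In KPC the quartiles also differed in make-up, the tip class being 31.6% of the lowest and 1.18% of the highest, with medians of 3757 and 1430.5 UMIs. Barcodes of at least 2000 UMIs were also thinned to 2000 and the shallower ones left out. The lowest quartile then held 2339 barcodes in place of 2670 in PyMT and 1133 in place of 1859 in KPC. In this smaller set 20 of 34 members in place of 21 passed 2-fold upward in both libraries (all genes 1.15%) and 0 downward (all genes 0.343%). The 20 again include all core genes. After thinning, Hsp90aa1 (−0.46 and −0.53) and Hspa8 (−0.05 and −0.09) stayed below 0 in both libraries. Hsph1 did not, at 0.03 in PyMT (−0.28 to 0.35) and −0.34 in KPC. Dnaja1 was then at −0.19 and −0.05.

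**Figure D2:**
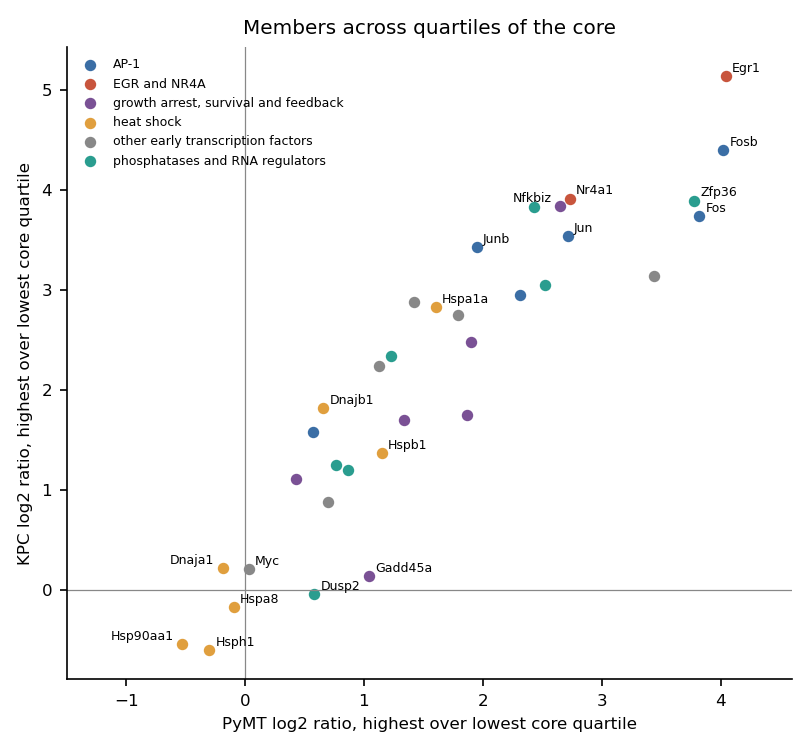
Log2 ratio of each of the 34 compared members between blood vessel barcodes in the highest and the lowest quartile of the immediate early core (leaving out the member itself), PyMT on one axis and KPC on the other, colored by role group. Egr1 (4.04 and 5.14) lies at the far upper end and Hsp90aa1 (−0.53 and −0.54) and Hsph1 (−0.30 and −0.61) below 0 in both libraries.

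The 4 vessel classes were each compared with all other blood vessel barcodes of the same library, so the comparisons share cells. A member was called when its level differed 2-fold or more the same way in both libraries. Of the 34 members 1 was called in any vessel class, Hspa1a, against 6.33% of all genes compared, so members were not called more often than genes at large. Called members were 1 higher in the artery class (all genes 2.1%) and 1 lower in the venule class (all genes 1.21%), both of them Hspa1a. In the other directions 0 members were called, against 2.66% of all genes lower in artery, 0.604% higher in venule, 0.0961% higher and 0.549% lower in tip, and 0.0274% higher and 0.371% lower in capillary.

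Hspa1a lies at chr17:34969190-34972156 on the minus strand. In the artery class it stood at 92.3 CPM in PyMT (45 UMIs) and 566 CPM in KPC (183 UMIs), against 15.1 and 199 CPM in the other blood vessel barcodes. The log2 ratios were 2.62 (2.15 to 3.05) and 1.51 (1.29 to 1.72). In the venule class it stood at 8.0 CPM (12 UMIs) and 102 CPM (299 UMIs), against 16.1 and 216 CPM, with log2 ratios of −1.01 (−1.97 to −0.19) and −1.08 (−1.25 to −0.91). Artery was the highest and venule the lowest of the 4 classes in both libraries. The capillary class was at 15 CPM in PyMT and 346 CPM in KPC, and the tip class at 12.6 and 118 CPM.

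Few barcodes carried the artery level in PyMT. A UMI of Hspa1a was in 18 of 126 PyMT artery barcodes and in 51 of 105 in KPC. The 3 barcodes with most UMIs held 21 of the 45 UMIs in PyMT and 46 of the 183 in KPC, and the level without them was 49.2 and 424 CPM. Among barcodes of at least 2000 UMIs thinned to 2000, 9.35% of 107 artery barcodes in PyMT and 35.8% of 67 in KPC had a UMI. Over all artery barcodes before thinning it was 14.3% and 48.6%. The venule class then had 0.351% of 285 (3.06%) and 13.5% of 533 (22.5%). No class in these data is one that should lack the gene, so a background share could not be set. Hspa1a and Hspb1 carry the heat shock motif printed above, as do promoters of genes that were not called.

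Hspa1a has a near-identical copy, Hspa1b, and reads from stretches they share cannot be assigned to either. Of the windows of 31 bases in the Hspa1a transcript, 63.8% also occur in Hspa1b, but 0 of the 470 in the last 500 bases, where a 3′ library is read. Hspa1b itself was below the filter, at 10.3 CPM (5 UMIs) and 27.8 CPM (9 UMIs) in the artery class against 1.35 and 10.2 CPM over all blood vessel barcodes.

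**Figure D3:**
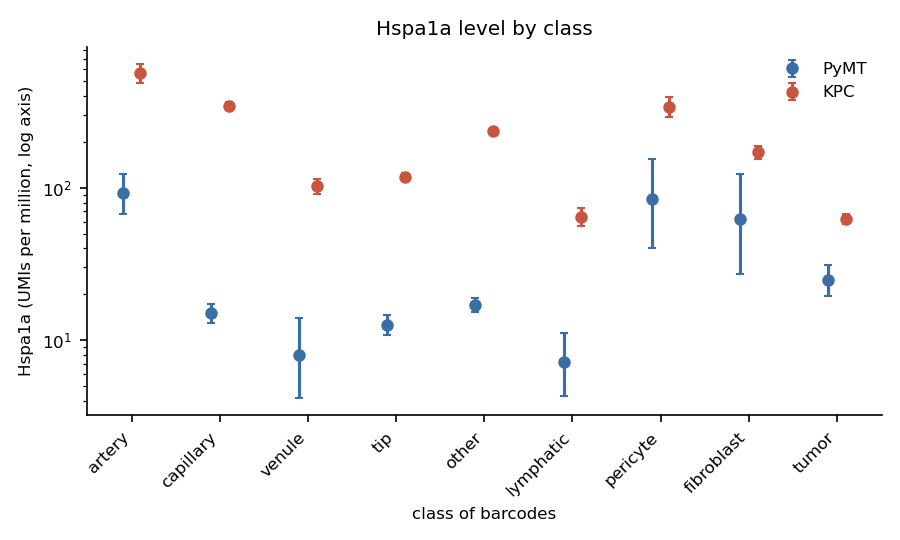
Level of Hspa1a in each class in the PyMT and KPC libraries, in CPM on a log axis, with exact 95% Poisson intervals. The artery class is the highest blood vessel class in both libraries (92.3 and 566 CPM) and the venule class the lowest (8.0 and 102 CPM), and every KPC level lies above the PyMT level of its class.

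To compare classes among barcodes of like core level, ratios were standardised over 4 strata of the core. Hspa1a in the artery class remained the only member called (1 of 34, against 5.56% of all genes in any vessel class and 1.77% higher in the artery class), with matched log2 ratios of 2.35 and 1.12. In the venule class its matched ratios were −1.18 and −0.91, the second short of 2-fold. In the other directions 0 members were called after matching, against 2.26% of all genes lower in artery, 0.576% higher and 1.21% lower in venule, 0.11% higher and 0.398% lower in tip, and 0.0274% higher and 0.398% lower in capillary. Within 10 strata of UMIs per barcode the artery ratios were 2.47 and 1.32, and the venule ratio in KPC was −0.77. Against the capillary class alone the artery ratio in KPC was 0.71, below 2-fold.

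At a lower bar, 1.5-fold the same way in both libraries, 14 of 34 members were past it in any vessel class (41.2%, all genes 16.9%). Most of these were early genes higher in the artery class or lower in the tip class, and most were no longer past it once barcodes were matched on the core. Fos, Fosb, Egr1, Dusp1, Zfp36 and Btg2 among them are core genes, so their smaller ratios after matching are partly built in. In the artery class 8 were higher (23.5%, all genes 6.14%): Fos, Fosb, Dusp1, Btg1, Btg2, Nr4a1, Gadd45g and Hspa1a. In the tip class 7 were lower (20.6%, all genes 1.96%): Fos, Egr1, Ier5, Dusp2, Zfp36, Btg1 and Btg2. In the venule class Nfkbiz was higher (1 of 34, all genes 1.77%) and Maff and Hspa1a were lower (2 of 34, all genes 2.92%). In the capillary class 0 were higher (all genes 0.261%) and 0 lower (0.755%).

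After matching, 1 member was left in the artery class (Hspa1a, all genes 5%) and 1 in the tip class (Dusp2, all genes 1.29%), and the same 3 in the venule class (all genes 1.74% higher and 2.96% lower). Egr1 shows the step most plainly, but Egr1 and Fos are core genes that vary with the rest of the core by the way it was picked. In the tip class Egr1 stood at 61.9 CPM in PyMT and 128 CPM in KPC against 97.2 and 483 CPM in the other blood vessel barcodes. Its log2 ratios of −0.65 and −1.92 became −0.19 and −0.47 on matching, and −0.47 and −0.81 within strata of depth. Fos went from −0.61 and −1.20 to −0.20 and −0.22 in the same class, and to −0.45 and −0.66 within strata of depth. The 27 members other than heat shock genes, core genes included, had medians of −0.45 and −0.92 in the tip class before matching. Their medians were −0.18 and −0.22 after it, while all genes had medians of −0.01 and −0.04 before it.

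Matching changed some ratios less. Dusp2, a nuclear phosphatase that switches off ERK, was at 106 and 85.3 CPM in the tip class against 175 and 129 CPM, with log2 ratios of −0.72 and −0.60 that stayed at −0.69 and −0.60. Btg1, an antiproliferative adaptor of mRNA deadenylation, had −0.80 and −0.75 before and −0.72 and −0.49 after matching, the last short of 1.5-fold. Its paralog Btg2, a core gene, went from −0.59 and −1.35 to −0.29 and −0.17. In the tip class 39.3% of PyMT and 29.5% of KPC barcodes had at least 2 UMIs of cycling genes, against 26.2% and 7.94% in the capillary class, and the part of cycling in these ratios was not tested.

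In the artery class Nr4a1 was at 131 CPM in PyMT (64 UMIs) against 24.7 CPM, and at 402 CPM in KPC (130 UMIs) against 207 CPM. Its log2 ratios of 2.41 and 0.96 became 1.81 and 0.44 on matching, so it stayed past 2-fold in 1 library. Gadd45a, a growth arrest and stress sensor, showed the reverse: 59.5 CPM against 44.4 CPM in PyMT (log2 ratio 0.42, −0.16 to 0.95) and 86.6 CPM against 24.1 CPM in KPC (1.84, 1.24 to 2.39), on 29 and 28 UMIs. The phosphatase Dusp1, a core gene that inactivates p38 and JNK, was at 582 and 1332 CPM against 272 and 792 CPM, with 1.10 and 0.75 before and 0.60 and 0.37 after matching.

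In the venule class Nfkbiz was the only member past 1.5-fold higher in both libraries, before and after matching (1 of 34, all genes 1.77% and 1.74%). It was at 72.7 and 170 CPM against 31 and 107 CPM, with log2 ratios of 1.23 and 0.67 and matched ratios of 0.92 and 0.79. Nfkbia, the inhibitor IκBα, was at 709 and 1145 CPM against 483 and 732 CPM, with 0.55 and 0.65 and matched ratios of 0.41 and 0.64. Nfkbia was short of 1.5-fold in PyMT, and neither was past 2-fold in both libraries. Among the vessel classes, venule was the highest for both genes in KPC only. In PyMT the artery class was higher, at 75.9 CPM for Nfkbiz and 755 CPM for Nfkbia. Maff, a small Maf factor, was lower at 24.7 and 39.3 CPM against 38 and 63.5 CPM (−0.62 and −0.69, matched −0.69 and −0.70). Gadd45g differed in PyMT at 234 CPM against 76.4 CPM (1.62) and little in KPC at 239 CPM against 203 CPM (0.24).

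The order of the 4 classes repeated for many members. Of the 34, 21 were lowest in the tip class in both libraries, and 0 of these were heat shock genes. How many of all genes had the same order was not counted, so the counts in this paragraph do not set members apart from other genes. Hsp90aa1 and Hspa8 were instead highest in the tip class in both, at 542 and 809 CPM for Hsp90aa1 against 432 and 618 CPM in the other blood vessel barcodes (log2 ratios 0.33 and 0.39) and at 3286 and 3888 CPM for Hspa8 against 2934 and 3417 CPM (0.16 and 0.19). Both, with Hsph1, were lowest in the artery class in both libraries. Being highest in the artery class in both libraries was seen for 10 members, among them Fos, Atf3, Dusp6 and the Hsp40 gene Dnajb1. Neighbors in these orders were often closer than their counting error in the artery class, where Hsph1 rested on 18 and 17 UMIs. Myc was highest in the venule class (43.3 and 42.7 CPM) and lowest in the capillary class (29.9 and 30.8 CPM) in both.

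**Figure D4:**
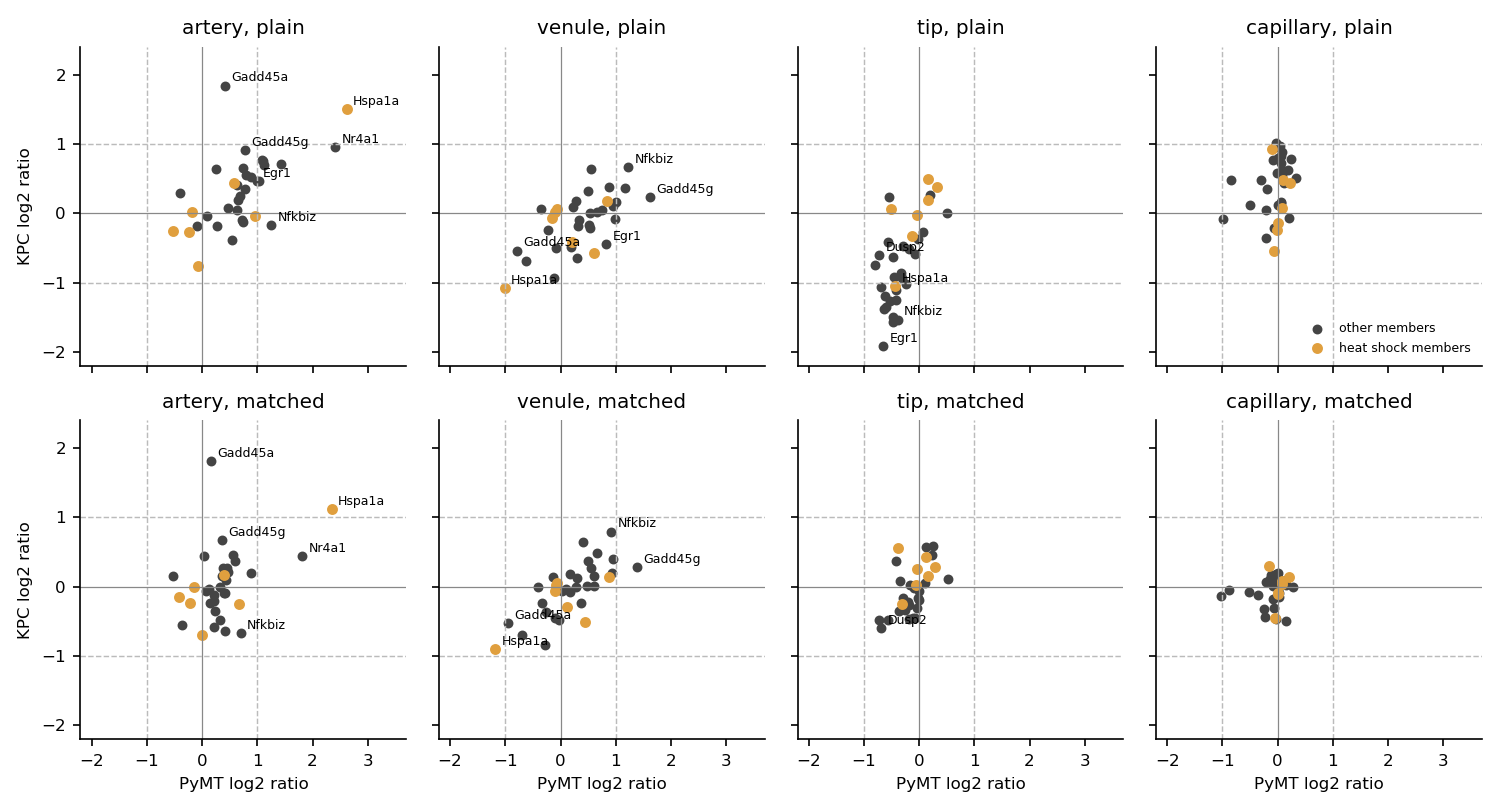
Log2 ratio of each compared member in each vessel class against the other blood vessel barcodes, PyMT on the horizontal and KPC on the vertical axis, before (upper row) and after (lower row) matching on the immediate early core (dashed lines at 2-fold). In the tip class the median of the 27 members other than heat shock genes, core genes included, moves from −0.45 and −0.92 to −0.18 and −0.22. Hspa1a in the artery class stays at 2.35 and 1.12.

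Beside the members, a list of 39 other early and stress genes was examined, of which 37 symbols were found and 33 compared. The artery class had 5 of these past 2-fold higher (all genes 2.1%) and 2 lower (all genes 2.66%). The higher ones were Klf2 and Klf4 (log2 ratios 1.66 and 1.31, and 2.36 and 1.52), factors known to respond to laminar flow, with Cyr61, Ppp1r15a and Tob1. The lower ones rested on few UMIs, Cebpb on 5 and 16 (−1.37 and −1.24) and the metallothionein gene Mt2 on 3 and 1 (−1.65, −3.93 to −0.10, and −2.50, −7.81 to −0.01). Mt2 was higher in the venule class (1.93 and 1.36, all genes 0.604%), and Ctgf, a YAP target, was higher in the tip class (1.69 and 2.12, all genes 0.0961%). In the capillary class 0 were called (all genes 0.0274% higher and 0.371% lower). After matching, Klf4 (1.71 and 1.0) and Cyr61 (1.62 and 1.12) remained higher in the artery class (all genes 1.77%), and Cebpb and Mt2 remained lower there (all genes 2.26%).

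Each class outside the blood vessels was compared with all blood vessel barcodes. Here 10 of 34 members were called in at least 1 class, a share near that of all genes (23.4%). In the lymphatic class Dusp2 was higher at 316 and 251 CPM against 156 and 115 CPM (1 of 34, all genes 2.14%). Gadd45g (log2 ratios −1.27 and −2.04) and Hspa1a (−1.15 and −1.66) were lower there (2 of 34, all genes 4.32%). In the pericyte class Nr4a1 was higher at 109 CPM (13 UMIs) and 421 CPM against 25.8 and 209 CPM (1 of 34, all genes 1.44%). Endothelial markers (Pecam1, Cdh5, Kdr, Tie1 and Egfl7) summed to 2849 CPM in the PyMT and 2237 CPM in the KPC pericyte class. Capillary markers not used by the rule summed to 11403 and 5418 CPM there. The part of these markers in the Nr4a1 difference was not tested in either library.

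In the fibroblast class Gadd45g was higher (1.09 and 1.09, 1 of 34, all genes 3.13%). Dusp2, Hspa8 and Hspb1 were lower there (3 of 34, all genes 9.1%), with Hspa8 at 1146 and 1561 CPM against 3028 and 3567 CPM. Dusp2 rested on 2 UMIs in the PyMT fibroblast class and 14 in KPC. In the tumor class Dusp5 was higher at 52.3 and 98.8 CPM against 10.9 and 21.1 CPM, as were Gadd45a (2.4 and 1.19) and the survival gene Ier3 (1.41 and 1.55), 3 of 34 against 1.37% of all genes. Dusp2 (−1.67 and −4.38) and Fosl2 (−1.81 and −2.30) were lower there, 2 of 34 against 12.8%. The tumor classes of the libraries differed widely in epithelial markers, as given above, so they may not hold like cells. Dusp2 was thus higher in the lymphatic and lower in the fibroblast and tumor classes in both libraries.

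The members below the filter were not low everywhere. Fosl1, the AP-1 subunit Fra-1, stood at 55 and 51.0 CPM in the tumor class against 2.13 and 2.97 CPM in blood vessel barcodes. Egr2 stood at 62.8 CPM (8 UMIs) and 60.5 CPM in the fibroblast class, where Gadd45b stood at 126 and 120 CPM. Egr3 and Nr4a2 were at 2.60 and 5.19 CPM in PyMT blood vessel barcodes and at 10.3 and 35.2 CPM in KPC. Nr4a3 reached 47.4 CPM in the KPC fibroblast class and was at 0.164 and 5.08 CPM in blood vessel barcodes.

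Between the libraries the members stood apart from other genes. In blood vessel barcodes 20 of 34 were 2-fold or more higher in KPC than in PyMT (all genes 3.01%) and 0 were lower (all genes 0.618%). The median log2 ratio was 1.15 for the members and 0.10 for all genes. Tumor model, organ, collagenase concentration and library differ together and cannot be told apart.

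All role groups took part. The higher members were 5 of 6 compared AP-1 genes, 2 of 2 EGR and NR4A genes, 3 of 6 other early genes, 3 of 7 phosphatases and RNA regulators, 3 of 6 growth arrest, survival and feedback genes and 4 of 7 heat shock genes. Hspa1a differed most, at 15.8 CPM in PyMT and 203 CPM in KPC (log2 ratio 3.68, 3.57 to 3.79). Nr4a1 followed at 25.8 and 209 CPM (3.02), then Hspb1 at 215 and 957 CPM (2.16) and Egr1 at 87.8 and 370 CPM (2.07). A pair of these are heat shock genes and the others are of the EGR and NR4A group.

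Among AP-1 genes Fos was at 643 and 1947 CPM (1.60), Fosb at 86.6 and 267 CPM (1.62), Junb at 343 and 1054 CPM (1.62), Jun at 578 and 1346 CPM (1.22) and Fosl2 at 67.8 and 137 CPM (1.01). Jund, at 235 and 463 CPM (0.98), was just under the bar. Of the other early genes Atf3 was at 140 and 339 CPM (1.27), Ier3 at 93.9 and 272 CPM (1.53) and Ier5 at 106 and 218 CPM (1.04), while Ier2 at 307 and 608 CPM (0.99) was just under it. The regulators Dusp1 (275 and 798 CPM, 1.54), Zfp36 (82.8 and 271 CPM, 1.71) and Btg2 (144 and 447 CPM, 1.63) were past it. So were Socs3, which dampens cytokine signaling through JAK kinases (128 and 437 CPM, 1.78), Nfkbiz (32.3 and 114 CPM, 1.82) and Gadd45g (81.2 and 207 CPM, 1.35).

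The abundant chaperones other than Hspb1 differed less. Hspa8 was at 3028 and 3567 CPM (0.24), the Hsp40 gene Dnaja1 at 495 and 753 CPM (0.61) and Hsp90aa1 at 461 and 679 CPM (0.56), whereas Hsph1 (38.9 and 88.3 CPM, 1.18) and Dnajb1 (67.8 and 147 CPM, 1.12) were past 2-fold. Not every early gene was higher in KPC: Btg1 (280 and 308 CPM, 0.14) and Myc (31 and 35.0 CPM, 0.17) were close to equal, and Dusp2 (156 and 115 CPM, −0.44) and Gadd45a (44.5 and 24.9 CPM, −0.84) were lower. Nfkbia was at 490 and 777 CPM (0.66) and Mcl1 at 107 and 161 CPM (0.59). The phosphatases Dusp5 (10.9 and 21.1 CPM, 0.95) and Dusp6 (123 and 159 CPM, 0.37) and Maff (37.6 and 60.8 CPM, 0.69) were also short of 2-fold.

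Most of these ratios were little changed at like depth. With the PyMT barcodes standardised to the depths of KPC, 18 of 34 members were 2-fold or more higher (all genes 2.36%), Ier5 (0.94) and Fosl2 (0.84) falling under the bar. The log2 ratio of the core went from 1.47 to 1.33, and that of Hspa1a from 3.68 to 3.63. In bins of like depth the KPC core lay above the PyMT core throughout, from 16515 against 5865 CPM under 1000 UMIs to 3792 against 2294 CPM over 8000 UMIs.

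**Figure D5:**
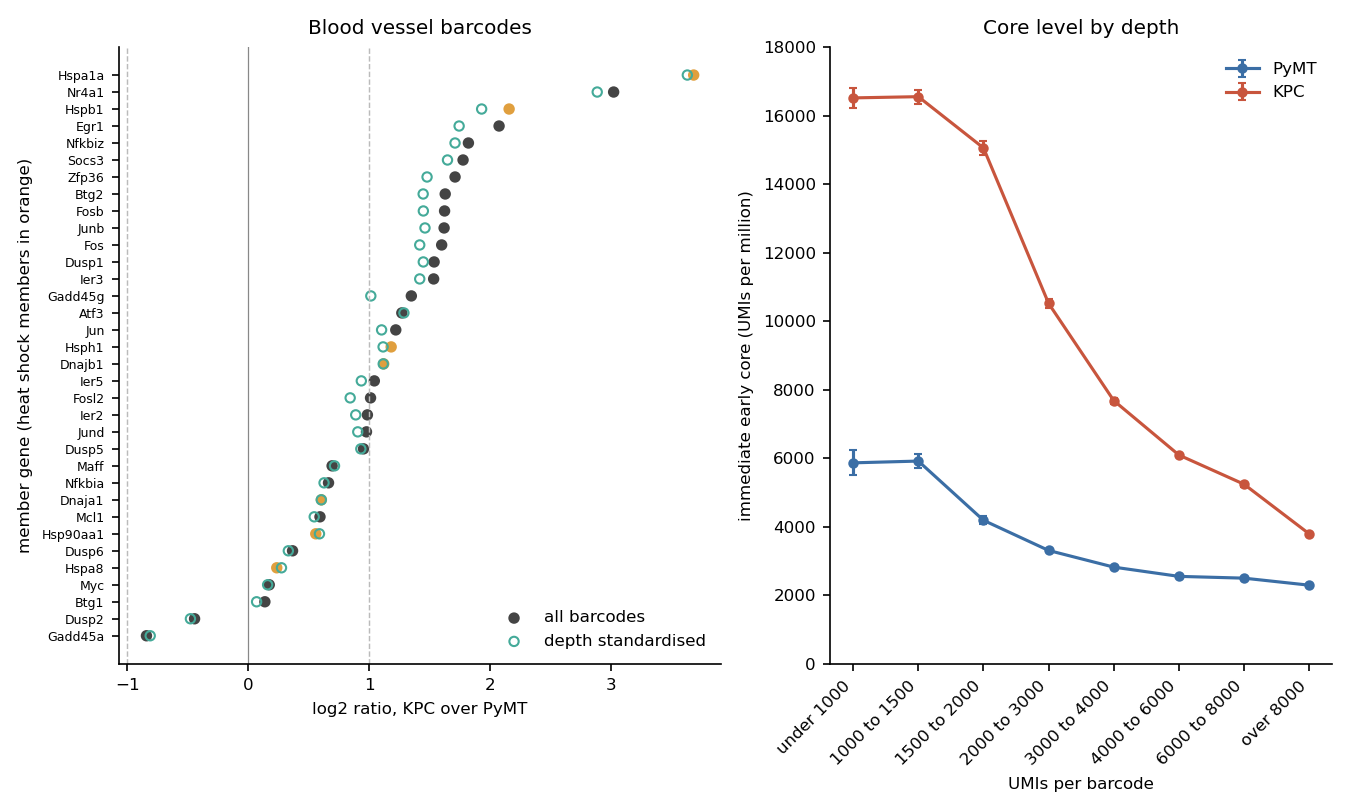
Left, log2 ratio of each compared member between KPC and PyMT blood vessel barcodes, over all barcodes and with PyMT standardised to the depths of KPC. Right, summed level of the immediate early core in CPM by UMIs per barcode, with the KPC line above the PyMT line in every bin, at 16515 against 5865 CPM in the shallowest and 3792 against 2294 CPM in the deepest.

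The difference between the libraries was uneven over classes. By log2 ratio of the core it was 2.06 in the capillary class, 1.62 in barcodes of no class, 1.03 in artery, 0.93 in tip and 0.87 in venule, and 0.56, 0.48, 0.39 and 0.32 in pericyte, fibroblast, tumor and lymphatic. With PyMT standardised to the depths of KPC within each class, it was 1.67 in capillary, 1.44 in no class, 1.08 in artery and between 0.34 (lymphatic) and 0.92 in the other classes. The capillary class had 23 of 34 members higher in KPC (all genes 6.42%), the tip class 12 (all genes 1.85%), the artery class 11 (all genes 8.89%) and the venule class 6 (all genes 1.67%). The lymphatic class had 2 (all genes 0.686%), Hspa1a (3.18) and Hspb1 (1.04). The pericyte class had 10 of 34 (all genes 10.6%), the fibroblast class 8 of 34 (all genes 10.2%) and the tumor class 7 of 34 (all genes 6.08%). Barcodes of no class had 22 members higher (all genes 4.31%) and 1 lower, Gadd45a (all genes 0.974%). Members lower in KPC numbered 4 in tumor (Dusp2, Dusp6, Gadd45a and Jun, all genes 11.7%) and 1 in fibroblast (Dusp2, all genes 8.25%). In the other classes 0 were lower, against 1.02% of all genes in lymphatic, 8.03% in pericyte, 1.13% in venule, 5.28% in artery, 0.604% in tip and 2.06% in capillary. Hspa1a was past 2-fold higher in KPC in every class, from 1.33 in tumor to 4.52 in capillary. In the PyMT tumor class 1 barcode held 35 of its 73 UMIs. Without the 3 barcodes with most UMIs, the tumor level was 10.9 CPM in PyMT and 58.6 CPM in KPC. The PyMT fibroblast and pericyte levels rested on 8 and 10 UMIs.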

How the data were processed

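The endothelial sorts of 1 PyMT and 1 KPC tumor sample were measured by 3′ droplet scRNAseq. The authors aligned reads to mm10 with Cell Ranger (3.0 in the submitters' processing notes, 3.0.2 in the file headers) and deposited whole-number UMI counts per gene and barcode, without normalization and with cells of other types still present. The kit is named as v2 for the libraries and as v3 for the sort. Features for tdTomato and CreERT2 held 0 UMIs. Because the total differs between barcodes, counts were summed over a class and scaled to CPM before any comparison.

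The filter on barcodes was a minimum of 500 genes and a limit of 10% on mitochondrial UMIs. Classes required summed UMIs of 5 (tumor), 10 (fibroblast), 3 (lymphatic), 2 (pericyte), 3 (venule), 2 (artery), 3 (tip) and 2 (capillary). Intervals are exact Poisson for levels, exact conditional binomial for log2 ratios and Clopper-Pearson for shares, all at 95%. UMIs of 1 library are not replicates of a condition, so intervals cover counting error only and no p-value is given. A level of 0 was set to a floor of 3 UMIs in ratios. Genes of at least 10 CPM in blood vessel barcodes of each library were compared. Matched ratios weight 4 core strata by the make-up of the class, the measured gene being left out of the core. No doublet caller was run, and leaving out the 8% of barcodes with most UMIs was an alternative. Scripts (Python 3.11.15, numpy 2.4.6, scipy 1.17.1, pandas 2.3.3, matplotlib 3.10.9) were tested on simulated data. Alternatives covered filters, thinning to 2000 UMIs, doublets, immune barcodes, class assignment, weighting, centring, comparator, strata and fold. Thinning left out barcodes of fewer than 2000 UMIs.

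The members and lists were chosen with earlier results of these data known. Values are given for members past 2-fold in any comparison, the 2 highest of each role group, the 3 highest and 3 lowest across core quartiles, and those past 2-fold between libraries. Myc, Btg1, Dusp2, Gadd45a, Maff, Nfkbiz and other members named for small or one-sided differences were chosen after their values were seen.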

Additional observations from a re-analysis of the deposited data

Results flagged for a closer look

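Jun moved in opposite directions between the libraries in different classes. In the tumor class its log2 ratio of KPC over PyMT was -1.6 (251 CPM in KPC against 760 CPM in PyMT, on 2726 and 2237 UMIs), whereas in blood vessel barcodes it was 1.22. The difference between the classes was not tested, since each model had 1 library. Epcam stood at 19.7 CPM in the PyMT tumor class against 170 in KPC, and the part of this in the difference was not tested.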

How the results depend on the processing

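The number of members called in a vessel class was 1 of 34. It was 3 after thinning to 2000 UMIs (Btg1, Hspa1a and Nfkbiz, all genes 9.41%), 2 with barcodes that met 1 class rule only (Hspa1a and Nr4a1, 7.27%), 0 of 26 among genes of at least 50 CPM, which leaves Hspa1a out (4.77%), 4 of 41 with no filter on low values (Egr3, Hspa1a, Hspa1b and Nr4a2, 5.63%) and 14 at 1.5-fold (16.9%). Against the capillary class alone it was also 1, but the gene was Gadd45a, and the share of all genes is not given for that setting. After matching on the core it was 1, and 0 at 50 CPM (all genes 4.17%), 2 with no filter (Hspa1a and Hspa1b, 3.98%) and 4 at 1.5-fold (14.8%). Outside the blood vessels the number was 10, and 16 after thinning (all genes 24.7%), 6 at 50 CPM (24.5%) and 16 with no filter (14.9%). Between the libraries it was 20 and lay between 16 and 26 under the alternatives run for it, among which 1.5-fold was not. The members compared were 26 at 50 CPM and 41 with no filter. Shares of all genes are not given for this range, so it does not set members apart from genes at large. Matching at 1.5-fold, strata of depth, depth-matched core ratios and the standardisation of depth were chosen after seeing the data. Of 422 recomputed values of the 52 ratios past 2-fold in the main comparisons, 0 changed sign, and 152 moved beyond their counting interval. Ratios that far from 0 were unlikely to change sign, and ratios short of 2-fold were not in this set. Outside it, the core quartile ratio of Hsph1 in PyMT went from −0.30 to 0.03 on thinning. The core ratio of the KPC venule class went from −0.19 to 0.05 within strata of depth. The venule difference of Hspa1a in KPC (−1.08) was −0.62 after thinning and −0.84 under a stricter filter (1000 genes, 5% mitochondrial UMIs). Small classes limit the precision, with 27 pericyte and 28 fibroblast barcodes in PyMT and 126 and 105 artery barcodes. No paired analysis was possible because each model had 1 library and no test was run.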

Other observations

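In the list of 33 other early and stress genes compared, 13 were 2-fold or more higher in KPC than in PyMT blood vessel barcodes (all genes 3.01%). Of the same list 0 were lower (all genes 0.618%). The higher ones included Cebpb (2.14), Klf4 (1.86), Ppp1r15a (1.78), Cebpd (1.77) and Ctgf (1.65) as log2 ratios, genes of the acute phase response, of flow sensing, of translation recovery under stress and of YAP signaling. Outside the blood vessels, Cebpb was higher in the lymphatic, pericyte, fibroblast and tumor classes in both libraries. Both metallothionein genes, Mt1 and Mt2, were higher in the fibroblast and tumor classes. Genes of the list called higher were 2 in lymphatic (all genes 2.14%), 2 in pericyte (1.44%), 4 in fibroblast (3.13%) and 5 in tumor (1.37%). Called lower were Hspb8 and Plk3 in lymphatic (all genes 4.32%) and Hsp90ab1 and Plk2 in fibroblast (9.1%). In tumor Cebpd, Ctgf and Plk2 were lower (12.8%), and in pericyte 0 were (1.24%).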
